A study of Homo sapiens with 54 samples.

Results

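Expression of 6 genes of DNA mismatch repair, MSH6, MSH3, PMS2, PMS1, MLH3 and EXO1, was followed in 54 RNA-seq libraries from colorectal cancer cells treated with 5-fluorouracil (5-FU). The genes were taken by symbol from the gene-level tables, and all 6 were found among the 59368 genes listed. The largest differences lay between the cell lines: MSH6 was low in DLD-1, MSH3 was low in HCT-116 and MLH3 was highest in DLD-1. After 5-FU, EXO1 and MSH6 fell in sensitive HCT-116, while EXO1 rose in sensitive HT-29 and gave no call in DLD-1.

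The cells were from 3 colorectal cancer lines, namely HT-29, HCT-116 and DLD-1, each as 5-FU-sensitive cells and as cells labelled 5-FU-resistant. The resistant cells had been obtained by passaging each line in rising concentrations of 5-FU. They were then maintained in medium with 5-FU at the highest of these concentrations, above the 10 µM given for treatment. Whether the drug was withdrawn before the uracil control is not stated, so standing exposure and resistance cannot be told apart. The control of every form and line was uracil (10 µM), and treated cells were given the same concentration of 5-FU, alone or with irradiation at the median lethal dose of that line, with RNA taken for 24 h treatments in biological triplicate (18 conditions, n = 3 each). Each line comes from a single tumour and each resistant form from a single selection, so a line or form is not replicated. DLD-1 and HCT-116 are microsatellite unstable, the hallmark of defective mismatch repair, and HT-29 is microsatellite stable. DLD-1 is known to carry truncating mutations in MSH6, and HCT-116 a frameshift in MSH3. The total estimated count per library ran from 38957142 to 218518344, with a median of 51373543. The deepest library was replicate 2 of sensitive DLD-1 under uracil, and the next highest total was 86673615.

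Mismatch repair corrects mispaired bases and small loops left by DNA polymerases. MSH6 and MSH3 are alternative subunits of the complexes that recognise the lesion, MSH6 for base mismatches and short loops and MSH3 for larger loops. PMS2, PMS1 and MLH3 belong to the MutL family, which acts after recognition: PMS2 supplies the endonuclease that nicks the new strand, MLH3 is an endonuclease with a known part in meiotic recombination, and PMS1 has no established enzymatic role. EXO1 is the exonuclease that removes the error-containing stretch and also works in the resection of DNA breaks. Mispairs made by 5-FU in DNA are recognised by this pathway, which is why it is studied in colorectal cancer treated with the drug.

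The labels of 9 libraries did not match the expression of the cells. Of 64 genes that marked sensitive HCT-116 under uracil (10 TPM or more, and no more than 0.1 TPM in HT-29 and DLD-1), 62 reached 1 TPM in the libraries labelled resistant HT-29 under each treatment, the same number as in resistant HCT-116. None of the 12 genes marking HT-29 and none of the 20 genes marking DLD-1 did so. These libraries are therefore called labelled resistant HT-29, and results that rest on them are given apart. Of 10 epithelial markers, 6 to 8 reached 1 TPM in each line and form, GPA33 and CDX1 being under 1 TPM in all. Of 9 markers of immune, stromal, endothelial and liver cells, 1 or 2 reached it.

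Levels are given in TPM, a unit scaled for transcript length and library depth, which allows genes of different length to be compared. Over the 18 conditions MSH6 had the widest reach in absolute terms, from a mean of 11.4 TPM in resistant DLD-1 under 5-FU to 57.8 TPM in labelled resistant HT-29 under uracil. MLH3 varied most in proportion, with a ratio of 15.2 between its highest mean, 23.6 TPM in irradiated sensitive DLD-1, and its lowest, 1.56 TPM in labelled resistant HT-29 under 5-FU. MSH3 spanned a ratio of 10.2 and EXO1 a ratio of 4.49. PMS1 and PMS2 stayed within ratios of 1.92 and 1.61. When the 18 conditions were put in order of their means, neighbours overlapped in their replicates in 9 of 17 steps for EXO1, 10 for MSH3, 12 for MLH3, 13 for PMS2, 14 for PMS1 and 15 for MSH6, so most neighbouring levels of MSH6 could not be separated and the large steps set the order.

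**Figure D1:**
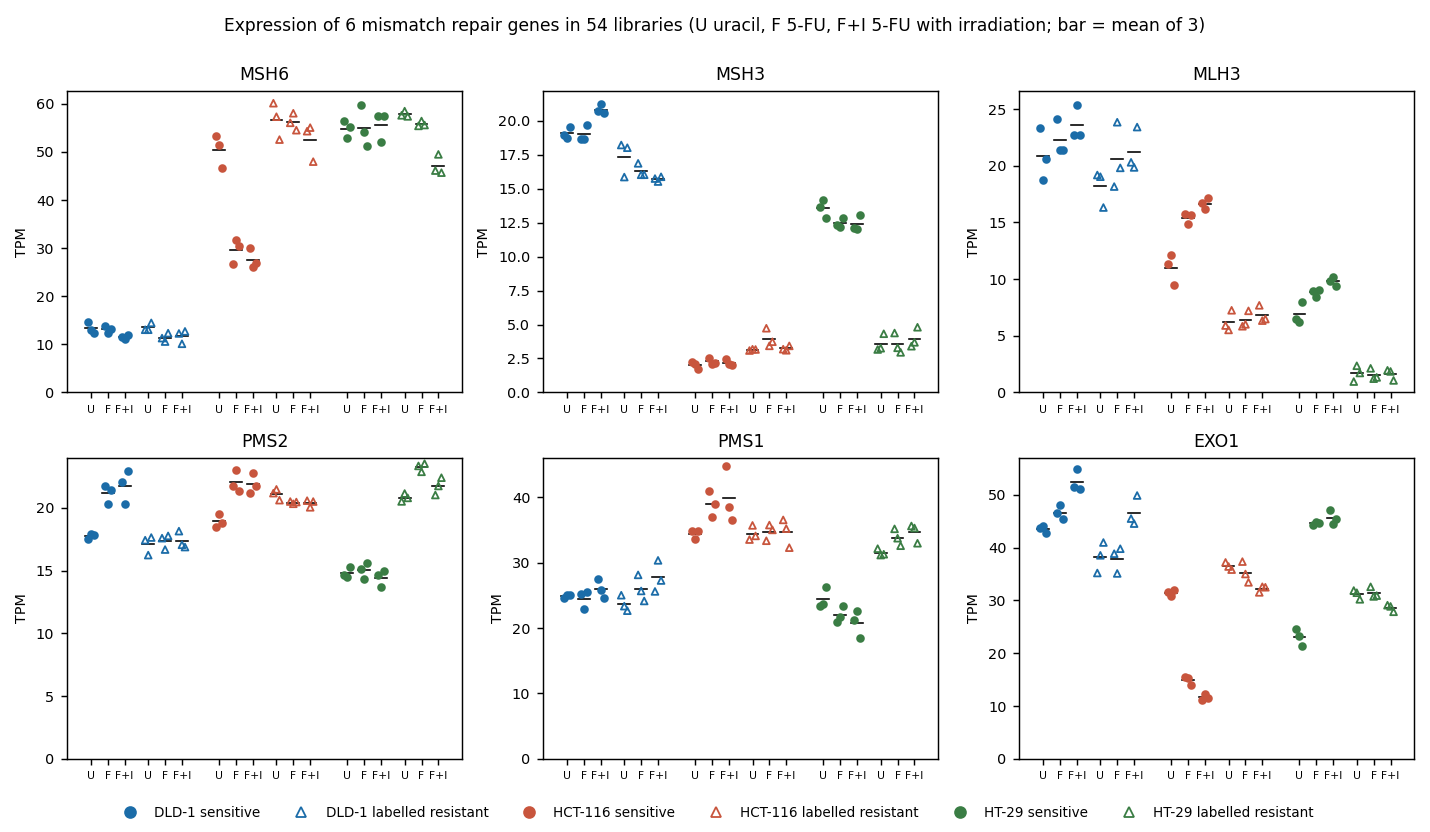
TPM of each gene in the 54 libraries, with 3 libraries per condition as points (filled circles for sensitive cells, open triangles for cells labelled resistant) and their mean as a bar, for uracil (U), 5-FU (F) and 5-FU with irradiation (F+I). MSH6 lies between 10.1 and 14.7 TPM in every DLD-1 library and MSH3 between 1.76 and 4.80 TPM in every HCT-116 and labelled resistant HT-29 library; EXO1 drops with 5-FU in sensitive HCT-116 and climbs in sensitive HT-29.

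The lines were first compared without 5-FU. All tests were made on estimated counts with edgeR's quasi-likelihood method, and a gene passed at an adjusted p of at most 0.01 over all genes tested. Between sensitive DLD-1 and sensitive HT-29 under uracil, all 6 genes passed, where 58.8% of the 26043 genes tested did. Between HCT-116 and HT-29 all 6 passed against 63.7% of genes, and between DLD-1 and HCT-116 5 passed against 59.8%, so differences between lines were common throughout the transcriptome. The largest were those of MSH6 in DLD-1 and of MSH3 in HCT-116.

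MSH6 (chr2:47783145-47810101, plus strand, RefSeq GRCh38.p14) measured 14.7, 13 and 12.3 TPM in the sensitive DLD-1 replicates under uracil, 53.3, 51.5 and 46.6 TPM in HCT-116, and 56.3, 52.8 and 55.3 TPM in HT-29. The DLD-1 libraries lay far below both other lines, whose ranges overlapped. The log2 difference was -2.09 ± 0.049 (SE) from HT-29 (adjusted p = 1.93e-37) and -1.76 ± 0.049 from HCT-116 (adjusted p = 2.12e-34). HCT-116 was lower than HT-29 by a smaller amount, -0.33 ± 0.046 (adjusted p = 1.55e-08), a call that was lost on the TPM scale (-0.12, adjusted p = 0.157, limma).

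MSH3 (chr5:80654652-80876815, plus strand) measured 18.9, 18.7 and 19.6 TPM in DLD-1, 13.7, 14.1 and 12.8 TPM in HT-29, and 2.26, 2.12 and 1.76 TPM in HCT-116. The 3 lines did not overlap, and HCT-116 stood at the bottom. The log2 difference of HCT-116 from HT-29 was -3.10 ± 0.067 (adjusted p = 3.23e-39) and that of DLD-1 from HCT-116 was 3.38 ± 0.066 (adjusted p = 4.83e-41). HCT-116 still gave 183 to 218 estimated MSH3 counts per library under uracil. The reference coding transcript MSH3-201 carried 0.491 ± 0.153 TPM there (SD, n = 3), against 5.74 ± 0.28 TPM in DLD-1 and 6.15 ± 0.91 TPM in HT-29. Its share of the gene's TPM was 23.8% in HCT-116, 30.1% in DLD-1 and 45.7% in HT-29, and at about 2 TPM the shares of HCT-116 rest on few reads.

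Among the MutL genes, MLH3 (chr14:75013775-75051467, minus strand) fell into 3 separate levels. Its replicates were 23.4, 18.8 and 20.6 TPM in DLD-1, 11.4, 12.1 and 9.53 TPM in HCT-116, and 6.49, 6.22 and 7.97 TPM in HT-29. The log2 difference of DLD-1 from HT-29 was 1.21 ± 0.056 (adjusted p = 5.65e-25), and HCT-116 lay between, 0.41 ± 0.058 above HT-29 (adjusted p = 1.83e-08). PMS1 (chr2:189784450-189877629, plus strand) was highest in HCT-116, with a mean of 34.4 ± 0.76 TPM against 24.9 ± 0.31 TPM in DLD-1 and 24.4 ± 1.61 TPM in HT-29 (SD, n = 3). The difference of PMS1 between DLD-1 and HT-29, 0.14 ± 0.045 on the log2 scale, passed the threshold (adjusted p = 0.00546), but was lost with DESeq2 (0.096, adjusted p = 0.0607) and when any replicate was left out.

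PMS2 (chr7:5970925-6009106, minus strand) has a near-identical copy of its 3' part, PMS2CL, and a family of PMS2P pseudogenes, so its counts are uncertain. PMS2 averaged 17.8 ± 0.20 TPM in DLD-1, 19 ± 0.53 TPM in HCT-116 and 14.8 ± 0.42 TPM in HT-29, and PMS2CL 11.2, 12.4 and 7.64 TPM. PMS2 was higher than in HT-29 by 0.41 ± 0.039 on the log2 scale in DLD-1 (adjusted p = 3.14e-13) and by 0.38 ± 0.039 in HCT-116 (adjusted p = 2.96e-12). Summed with its copies, the DLD-1 difference shrank to 0.095 (adjusted p = 0.0166), whereas HCT-116 stayed higher, 0.18 (adjusted p = 1.63e-05). DLD-1 against HCT-116 gave no call for PMS2 (0.024 ± 0.038, adjusted p = 0.591).

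EXO1 (chr1:241847986-241889939, plus strand) was highest in DLD-1, with 43.7, 44.2 and 42.8 TPM, then in HCT-116, with 31.7, 30.8 and 32.0 TPM, and lowest in HT-29, with 24.6, 23.2 and 21.3 TPM. No library of one line reached those of another. DLD-1 exceeded HT-29 by 0.84 ± 0.044 (adjusted p = 7.41e-23) and HCT-116 by 0.54 ± 0.043 (adjusted p = 8.13e-16) on the log2 scale. All EXO1 counts were assigned to transcripts of the reference annotation, and their makeup differed by line: EXO1-201 took 41.1% of the gene's TPM in DLD-1, 33.8% in HT-29 and 23.5% in HCT-116, with replicate ranges of 40.0% to 43.3%, 32.0% to 35.6% and 22.6% to 24.1% that did not meet. The reference transcript EXO1-202 was the larger one in HCT-116, at 47.4%.

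**Figure D2:**
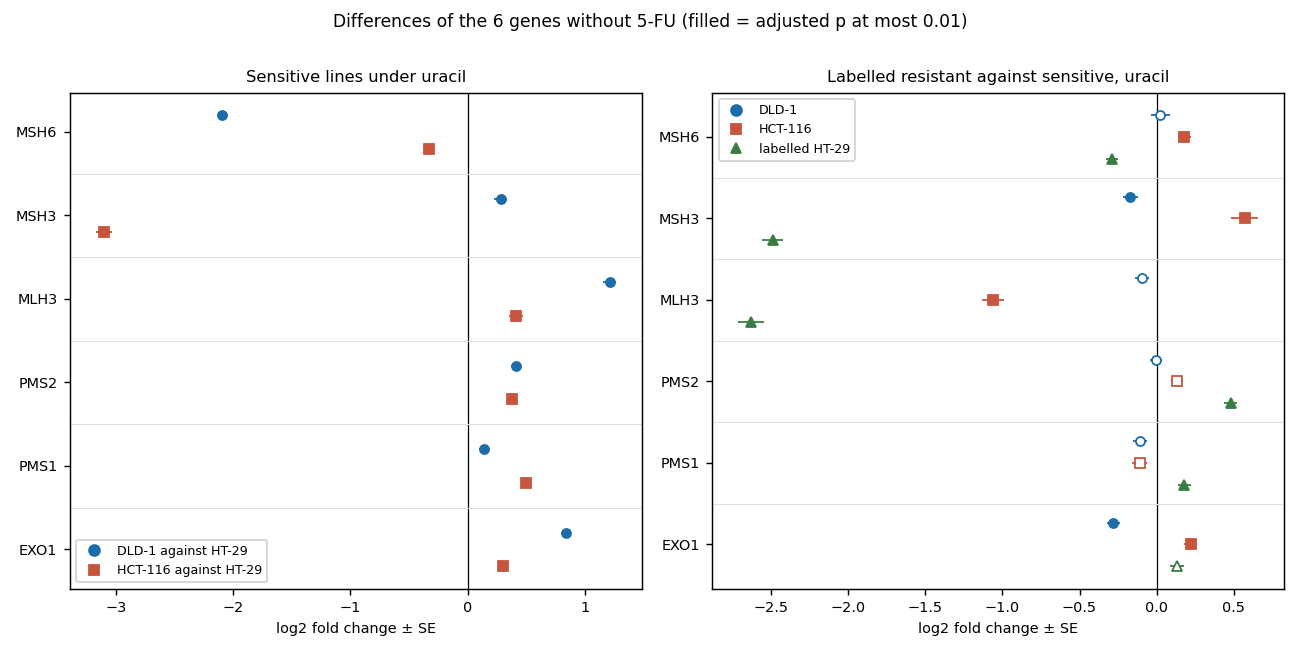
Log2 fold change with its standard error for each gene under uracil, on the left for sensitive DLD-1 and sensitive HCT-116 against sensitive HT-29 and on the right for labelled resistant against sensitive cells of each line; filled symbols passed an adjusted p of 0.01. MSH6 in DLD-1 (-2.09) and MSH3 in HCT-116 (-3.10) stand out on the left, and MLH3 and MSH3 of labelled resistant HT-29 (-2.63 and -2.49) on the right.

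The second question was how the genes answered 5-FU in sensitive cells. Of the 6 genes, 2 passed in DLD-1, where 34.7% of genes tested did, 5 in HT-29 (47.0%) and 4 in HCT-116 (42.0%). Of the 5 calls in HT-29, those of MSH6, MSH3, PMS1 and PMS2 were lost on the TPM scale with limma, leaving EXO1. The genes did not move in 1 direction: the called changes were 1 higher and 1 lower in DLD-1 (14.4% and 20.3% of genes), 2 higher and 2 lower in HCT-116 (17.6% and 24.4%), and 1 higher and 4 lower in HT-29 (22.1% and 24.9%). The median log2 change of the 6 genes was -0.0055, 0.15 and -0.24 in the 3 lines, against 0.015, 0.025 and 0.035 for all genes tested. With the 2-fold threshold of the study added, 4.02%, 8.14% and 12.2% of genes passed in the 3 lines, and of the 6 genes only EXO1 in HCT-116 did. In bulk RNA, a change in the share of cells in a phase of the cycle and a change in RNA per cell cannot be told apart.

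EXO1 gave the largest responses, in opposite directions. In sensitive HCT-116 it went from 31.7, 30.8 and 32.0 TPM under uracil to 15.6, 15.2 and 14 TPM under 5-FU, so every treated library was below every control. The log2 change was -1.10 ± 0.046 (adjusted p = 7.79e-15). In sensitive HT-29 it went from 24.6, 23.2 and 21.3 TPM to 44.3, 44.9 and 44.8 TPM, every treated library being above every control, with a log2 change of 0.70 ± 0.045 (adjusted p = 5.67e-13).

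In sensitive DLD-1, EXO1 moved little, from 43.7, 44.2 and 42.8 TPM to 46.5, 48.0 and 45.4 TPM, and the test gave no call (0.022 ± 0.042, adjusted p = 0.705). The response in HCT-116 differed from that in HT-29 by -1.86 ± 0.064 (adjusted p = 3.93e-29), a term that 34.9% of genes passed. DLD-1 differed from HT-29 by -0.74 ± 0.061 (adjusted p = 2.39e-14; 27.2% of genes) and from HCT-116 by 1.11 ± 0.062 (adjusted p = 1.65e-20; 25.3% of genes). These 3 terms share libraries, since each line enters 2 of them.

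MSH6 also fell with 5-FU in sensitive HCT-116, from 53.3, 51.5 and 46.6 TPM to 26.6, 31.7 and 30.4 TPM, with no overlap. The log2 change was -0.73 ± 0.041 (adjusted p = 1.35e-12), and the response of DLD-1 minus that of HCT-116 was 0.69 ± 0.068 (adjusted p = 7.48e-12). In sensitive HT-29 the direction of MSH6 depended on the scale: it fell by 0.28 in the edgeR fit (SE 0.038, adjusted p = 5.43e-07) and was flat in TPM, with 56.3, 52.8 and 55.3 TPM before and 59.7, 54.1 and 51.3 TPM after (0.0034, adjusted p = 0.973, limma). In DLD-1, where the gene was lowest, MSH6 gave no call (-0.033 ± 0.062, adjusted p = 0.703).

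MSH3, the other recognition subunit, gave no call in sensitive HCT-116 or DLD-1 and fell in HT-29. MSH3 in sensitive HCT-116 measured 2.26, 2.12 and 1.76 TPM under uracil and 2.56, 2.13 and 2.20 TPM under 5-FU, overlapping groups with no call (0.16 ± 0.091, adjusted p = 0.135). In HT-29 MSH3 fell from 13.7, 14.1 and 12.8 TPM to 12.3, 12.2 and 12.8 TPM, by 0.39 on the log2 scale (SE 0.055, adjusted p = 7.46e-07), a call that was lost on the TPM scale (-0.12, adjusted p = 0.506, limma).

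Among the MutL genes, PMS2 rose in sensitive DLD-1, from 17.5, 17.9 and 17.9 TPM to 21.8, 20.3 and 21.4 TPM (0.19 ± 0.039, adjusted p = 0.000449), and in HCT-116, from 18.5, 19.5 and 18.8 TPM to 21.8, 23.0 and 21.4 TPM (0.26 ± 0.039, adjusted p = 8.01e-06). Neither pair of groups overlapped, and both calls held when PMS2 was summed with its copies (0.22 and 0.19). The DLD-1 call was lost without replicate 2 (0.19, adjusted p = 0.0144). In HT-29 PMS2 fell by 0.21 (adjusted p = 0.000229), which turned to 0.019 in TPM (adjusted p = 0.762, limma).

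MLH3 rose in HCT-116, from 11.4, 12.1 and 9.53 TPM to 15.8, 14.9 and 15.7 TPM, a log2 change of 0.34 ± 0.066 (adjusted p = 0.000144), and the groups did not overlap. The MLH3 call was lost without replicate 1 (0.27, adjusted p = 0.0231). In DLD-1 and HT-29 the MLH3 changes of 0.029 and 0.049 gave no call. In TPM, MLH3 in HT-29 was nonetheless higher under 5-FU, with 8.98, 8.43 and 9.07 TPM against 6.49, 6.22 and 7.97 TPM, without overlap. PMS1 fell by 0.40 in HT-29 (SE 0.044, adjusted p = 9.88e-09) and by 0.16 in DLD-1 (SE 0.045, adjusted p = 0.00704), and both calls were lost on the TPM scale (-0.15 and -0.022). The DLD-1 call was the weaker one, being lost also with DESeq2 (-0.14, adjusted p = 0.0123), with no filter and when any replicate was left out. In HCT-116 PMS1 changed by 0.14 (adjusted p = 0.0162). Scaling by library size alone moved the median of all genes to 0.19 for HT-29, 0.12 for DLD-1 and 0.11 for HCT-116. The falls of MSH6, MSH3 and PMS1 in HT-29 were then -0.12, -0.24 and -0.25, and the calls of PMS2 in HT-29 (-0.049, adjusted p = 0.301) and PMS1 in DLD-1 (-0.055, adjusted p = 0.338) were lost.

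**Figure D3:**
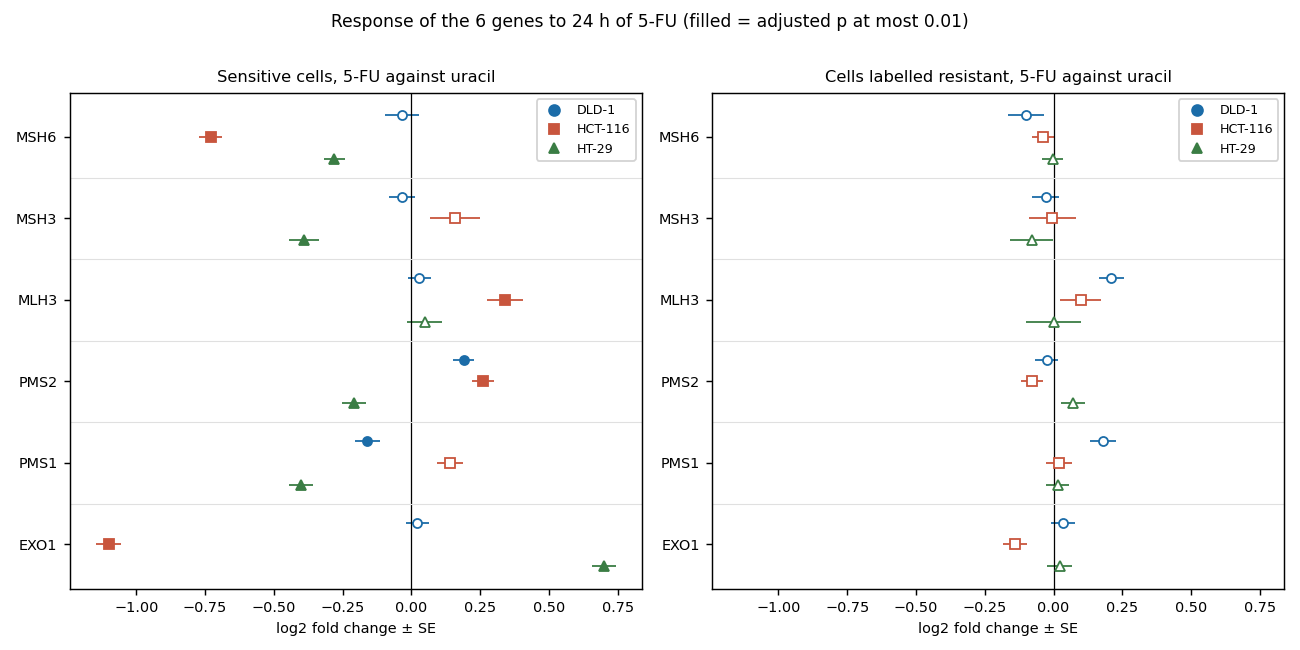
Log2 fold change of 5-FU against uracil with its standard error for each gene in sensitive cells (left) and cells labelled resistant (right) of the 3 lines; filled symbols passed an adjusted p of 0.01. EXO1 moves by -1.10 in HCT-116 and 0.70 in HT-29 among sensitive cells, and no symbol is filled among cells labelled resistant.

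Other genes of the pathway and of the cell cycle were set beside these values. The repair step after excision uses replication factors: the PCNA clamp, its RFC loader, RPA, DNA polymerases delta and epsilon, LIG1 and HMGB1. Of 19 such genes, 1 rose and 18 fell in sensitive HCT-116 (median -0.85), 1 rose and 10 fell in DLD-1 (median -0.19), and 8 rose and 5 fell in HT-29 (median 0.072). The largest were RPA3 and HMGB1 in HCT-116, both -1.51, PCNA in DLD-1, -0.65, and POLD4 in HT-29, 1.15. Of 6 relatives of the mismatch repair genes and interacting factors, the meiotic MSH4 rose most, by 2.63 in HCT-116 and 1.11 in DLD-1. The highest change of these 6 in HT-29 was 1.39, in a gene that the naming rule (a call and a mean of at least 1 TPM) left out.

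Of 21 genes of G1/S and replication licensing, 20 fell in sensitive HCT-116 (median -1.23), 9 fell and none rose in DLD-1 (median -0.12), and 15 rose and 4 fell in HT-29 (median 0.33). Of 13 mitotic genes, all fell in HCT-116 (median -1.85), 3 rose in DLD-1 (median 0.14), and 3 rose and 8 fell in HT-29 (median -0.53). EXO1 had the sign of the G1/S median in HCT-116 and HT-29, but not in DLD-1 (0.022), and MSH6 had the opposite sign to it in HT-29 (-0.28). The part of cell cycle phase in the EXO1 and MSH6 changes was not tested. CDKN1A, the p53-induced cell cycle inhibitor, rose by 1.60 in HCT-116 and by 3.91 in HT-29 and gave no call in DLD-1 (-0.37, adjusted p = 0.14).

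**Figure D4:**
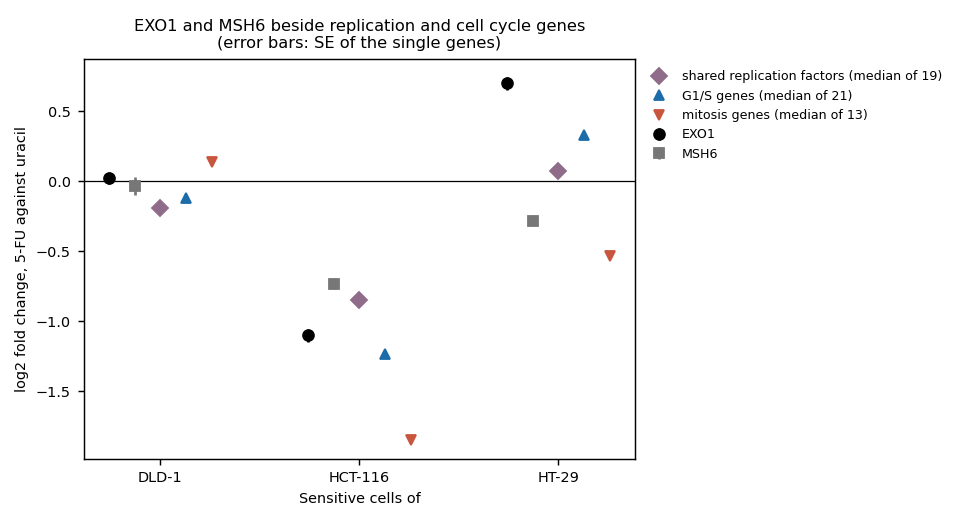
Log2 fold change of 5-FU against uracil in sensitive cells of each line for EXO1 and MSH6 (with standard error) and the median over 19 shared replication factors, 21 G1/S genes and 13 mitosis genes. In HCT-116 all 5 symbols lie below 0 and in HT-29 EXO1 (0.70) and the G1/S median (0.33) lie above it.

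Promoter sequence was examined because EXO1 and MSH6 both fell in HCT-116 while MSH3 gave no call. Windows of 250 bases before to 50 bases after each start site (RefSeq, GRCh38.p14) were searched on both strands for 4 strings of the kind bound by E2F factors, the regulators of G1/S transcription: TTTCCCGC, TTTGGCGC, TTTCGCGC and GCGGGAA. At least 1 of them was present in 7.56% of 35116 windows of that length. A match was found at 1 of 2 start sites of EXO1, 3 of 4 of MSH6 and the 1 start site of MSH3, and at none for PMS2, PMS1 and MLH3. The MSH6 windows from 47783703 and from 47783705 overlap and hold the same GCGGGAA, so these start sites are not separate matches. That string alone was present in 6.55% of all windows. A stretch is shown for each of EXO1 and MSH6, the genes that fell in HCT-116, with matched letters in capitals.
EXO1, chr1:241848148-241848223, plus strand: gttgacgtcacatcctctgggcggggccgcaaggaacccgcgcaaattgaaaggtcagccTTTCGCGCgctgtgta
MSH6, chr2:47783088-47783164, plus strand: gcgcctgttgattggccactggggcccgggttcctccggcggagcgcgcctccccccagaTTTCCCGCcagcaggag

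The match lies from base 5 after the EXO1 start, from base 4 after an MSH6 start and from base -107 of MSH3. It is a match of letters and no measured binding site, and MSH3, with no call after 5-FU in HCT-116, had one as well.

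Irradiation added to 5-FU changed few genes in sensitive cells. In sensitive HCT-116, where 0.927% of genes passed, 1 of the 6 did: EXO1 went from 15.6, 15.2 and 14 TPM to 11.1, 12.4 and 11.6 TPM, all below the 5-FU libraries (-0.38 ± 0.049 on the log2 scale, adjusted p = 2.68e-05). The call was lost without replicate 2 (-0.38, adjusted p = 0.0165). By edgeR, none of the 6 passed in sensitive DLD-1 (0.0642% of genes) or sensitive HT-29 (0.00842% of genes). At an unadjusted p under 0.05 there were 2 of the 6 in DLD-1, beside 2447 of 21814 genes, and 0 in HT-29, beside 786 of 23756. DESeq2 called 0 of the 6 in both, beside 75 and 0 genes.

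The third question was what differed in cells labelled resistant. Under uracil, 2 of the 6 genes passed between resistant and sensitive DLD-1 (24.6% of genes) and 4 in HCT-116 (41.1%). MLH3 gave the largest change in HCT-116: resistant cells had 5.91, 5.52 and 7.25 TPM against 11.4, 12.1 and 9.53 TPM in sensitive cells, without overlap. The log2 difference was -1.06 ± 0.072 (adjusted p = 3.73e-11).

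MSH3 was higher in resistant HCT-116, with 3.08, 3.18 and 3.16 TPM against 2.26, 2.12 and 1.76 TPM (0.57 ± 0.09, adjusted p = 1.32e-05). These 3 resistant libraries were still below every DLD-1 library. EXO1 and MSH6 were also higher in resistant HCT-116, by 0.22 (SE 0.044, adjusted p = 0.000223) and 0.18 (SE 0.04, adjusted p = 0.000503), both lost without replicate 2 (adjusted p = 0.0145 and 0.0147), and MSH6 also on the TPM scale (0.17, adjusted p = 0.0879, limma). In DLD-1 the called changes were lower levels in resistant cells: EXO1 with 35.2, 38.6 and 41.0 TPM against 43.7, 44.2 and 42.8 TPM (-0.28 ± 0.043, adjusted p = 2.04e-05), and MSH3 by -0.17 (SE 0.048, adjusted p = 0.0086). The EXO1 call was lost on the TPM scale (-0.19, adjusted p = 0.0271, limma), and the MSH3 call there (-0.13, adjusted p = 0.0649) and when any 1 replicate was left out.

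Resistant cells showed no called response of these genes to 5-FU. By edgeR 0 of 6 passed in resistant DLD-1, where 0.385% of genes did, in resistant HCT-116, where 0.0% did, and in labelled resistant HT-29, where 0.0421% did. At an unadjusted p under 0.05 these were 2, 1 and 0 of the 6, beside 4041 of 21814, 1878 of 22975 and 1280 of 23756 genes. DESeq2 called 1 (MLH3 in DLD-1), 0 and 0 of the 6, beside 445, 4 and 21 genes. EXO1 in resistant HCT-116 measured 37.2, 36.4 and 35.9 TPM under uracil and 37.4, 35 and 33.4 TPM under 5-FU, overlapping groups.

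The difference between the 5-FU responses of resistant and sensitive cells was tested directly. It passed for 2 of the 6 genes in DLD-1 (22.8% of genes) and 3 in HCT-116 (29.7%), and for 5 in labelled resistant HT-29 (35.4%). In HCT-116 the terms were 0.96 ± 0.063 for EXO1 (adjusted p = 5.19e-11), 0.69 ± 0.057 for MSH6 (adjusted p = 2.23e-09) and -0.34 ± 0.056 for PMS2 (adjusted p = 4.13e-05). In DLD-1 they were 0.33 ± 0.065 for PMS1 (adjusted p = 0.000415) and -0.21 ± 0.057 for PMS2 (adjusted p = 0.00571), both of which lost the call in at least 1 alternative analysis.

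With irradiation added to 5-FU, 1 of the 6 passed in resistant DLD-1 (3.85% of genes), where EXO1 rose from 38.9, 35.1 and 39.8 TPM to 45.5, 44.6 and 49.9 TPM (0.29 ± 0.043, adjusted p = 0.000235). The call for EXO1 was lost without replicate 2 (adjusted p = 0.0322) and without replicate 3 (adjusted p = 0.0295). In resistant HCT-116 1 of the 6 passed (2.58% of genes), MSH6 with -0.18 (adjusted p = 0.00974), which was lost when any 1 replicate was left out. Of the 21 G1/S genes, 7 rose and 0 fell in resistant DLD-1 with irradiation (median 0.18).

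Libraries labelled resistant HT-29 are described apart, since they expressed HCT-116 markers. Against sensitive HT-29 under uracil, 5 of the 6 genes passed, where 68.4% of genes did. MLH3 measured 0.957, 2.35 and 1.72 TPM against 6.49, 6.22 and 7.97 TPM (-2.63 ± 0.082, adjusted p = 2.24e-20), and MSH3 3.16, 3.25 and 4.32 TPM against 13.7, 14.1 and 12.8 TPM (-2.49 ± 0.066, adjusted p = 6.58e-22). Their MSH3 gave no call against resistant HCT-116, which had 3.08 to 3.18 TPM (0.04 ± 0.073, adjusted p = 0.763).

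MLH3 stood apart from HCT-116 as well. Labelled resistant HT-29 was below sensitive HCT-116 by -3.03 ± 0.074 (adjusted p = 7.56e-35) and below resistant HCT-116 by -1.98 ± 0.079 (adjusted p = 3.4e-26) on the log2 scale. Of the 6 genes, 4 passed in the first of these comparisons (30.2% of genes) and 3 in the second (20.2%). EXO1 was lower than in resistant HCT-116 by -0.39 (SE 0.044, adjusted p = 4.46e-10) and PMS1 by -0.21 (SE 0.045, adjusted p = 0.000226). The PMS1 call was lost on the TPM scale (-0.13, adjusted p = 0.188, limma), without replicate 2 (adjusted p = 0.0249) and without replicate 3 (adjusted p = 0.018). MLH3 gave 112 to 139 estimated counts per library in labelled resistant HT-29 under uracil, and its replicates had a coefficient of variation of 41.7%, the highest of any of the 6 genes in any condition.

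With irradiation, 2 of the 6 genes passed in labelled resistant HT-29 (14.4% of genes). MSH6 went from 55.4, 56.4 and 55.6 TPM to 46.1, 49.5 and 45.7 TPM without overlap (-0.25, adjusted p = 2.23e-05), and EXO1 from 32.6, 30.8 and 30.9 TPM to 29.1, 28.9 and 27.9 TPM (-0.28, adjusted p = 6.28e-05). The EXO1 call was lost without replicate 2 (-0.25, adjusted p = 0.0152) and on the TPM scale (-0.13, adjusted p = 0.056). In the same libraries 16 of the 21 G1/S genes fell and none rose (median -0.26).

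As a description of shared patterns, Pearson's r of log2(TPM + 1) over the 18 condition means was computed against 21996 genes. The conditions share lines and treatments, so no p is given. The gene most like MSH3 was HOXB3 (r = 0.991), that most like MSH6 was ECI1 (0.985), that most like EXO1 was XRCC3 (0.972), followed by MIR924HG (0.97) and PKMYT1 (0.968). PMS1 was most like SAMM50 (0.97), PMS2 most like AC009404.1 (0.96) and MLH3 most like ABCF1 (0.956). With Spearman's rho HOXB3 was again first for MSH3 (0.994) and the first gene differed for the other 5. Among the 6 genes, PMS1 and PMS2 had the highest r (0.778) and MSH3 and PMS1 the lowest (-0.895).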

How the data were processed

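RNA-seq libraries (poly(A)-selected, directional, paired-end) came from 3 lines, 2 forms and 3 treatments, with 3 replicates each. The authors trimmed reads with Trimmomatic 0.36 and quantified them with kallisto 0.44.0 against Ensembl 98 transcripts, per the labels and the study's methods, then summed transcripts to genes. The deposited tables hold estimated counts and TPM per gene and per transcript. Of the gene values, 60.8% were whole, and estimated counts were rounded before testing. Reads shared between near-identical genes are apportioned by the estimation, which touches PMS2.

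The main test was edgeR 4.0.16 (R 4.3.3), quasi-likelihood, with TMM factors, filterByExpr, Benjamini-Hochberg adjustment over all genes and a threshold of 0.01. It was fitted per line (18 libraries, 12 residual degrees of freedom) and over all 54 libraries (36) for comparisons between lines. SE, also in the figures, is an approximate standard error derived from the test. It is the absolute log2 fold change divided by the square root of the quasi-likelihood F statistic. The fit was checked on simulated data that held 2-fold changes only, so the check does not cover smaller changes. Alternatives were DESeq2 1.42.0, library size alone, no filter, only the compared groups, a replicate block, leaving out each replicate, limma 3.58.1 on log2(TPM + 0.5), a 2-fold threshold and PMS2 summed with its copies. Replicates differed by more than sampling noise (lowest chi-square per degree of freedom 2.24 over 54 pairs). The precision of each value is set by its replicates.

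The 6 genes and the gene lists were chosen with earlier results of these data known. All 6 genes were named; from the lists of shared replication factors and relatives, the rule named the 3 called genes of largest change per comparison with a mean of at least 1 TPM, of which the text gives some. Positions and promoter sequences are from RefSeq GRCh38.p14, since the deposited tables give no coordinates. Transcript values are given only for MSH3 and EXO1, at least 99.8% of whose counts matched GENCODE 44 transcripts; for MLH3 and MSH6 the share fell to 32.1% and 28.8%. Protein sequences were not used here.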

Additional observations from a re-analysis of the deposited data

Results flagged for a closer look

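The results listed here are differences between the 5-FU responses of 2 groups of cells that passed an adjusted p of 0.01 by edgeR's test of the difference itself, as log2 values. No cause was tested.

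Between resistant and sensitive HCT-116 the response differed by 0.96 for EXO1, 0.69 for MSH6 and -0.34 for PMS2. Between resistant and sensitive DLD-1 it differed by 0.33 for PMS1 and -0.21 for PMS2. Between labelled resistant HT-29, whose libraries carry HCT-116 markers, and sensitive HT-29 it differed by -0.67 for EXO1, 0.42 for PMS1, 0.31 for MSH3, 0.28 for PMS2 and 0.27 for MSH6. The MSH6 value turned to -0.054 on the TPM scale. The MSH3 call was lost with DESeq2 (adjusted p = 0.0134), library size alone, no filter, limma on TPM (0.098), the replicate block and any replicate left out.

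Among sensitive lines, the response of HCT-116 differed from that of HT-29 by -1.86 for EXO1, -0.51 for MSH6, 0.50 for MSH3, 0.49 for PMS1 and 0.41 for PMS2. The response of DLD-1 differed from that of HT-29 by -0.74 for EXO1, 0.33 for PMS2 and 0.29 for MSH3, and from that of HCT-116 by 1.11 for EXO1, 0.69 for MSH6, -0.32 for MLH3 and -0.30 for PMS1.

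Further calls listed here were lost in an alternative. On the TPM scale, with limma, the losses were PMS1 and PMS2 for resistant against sensitive DLD-1, PMS1 and PMS2 for labelled resistant against sensitive HT-29, MSH3 for HCT-116 against HT-29 and for DLD-1 against HT-29, and MLH3 and PMS1 for DLD-1 against HCT-116. With a replicate left out, PMS1 (replicate 3) and PMS2 (any) were lost for DLD-1, MSH6 (replicate 2) and PMS2 (replicates 1 and 2) for labelled resistant HT-29, MSH3 (replicates 1 and 2) for DLD-1 against HT-29, and MLH3 (replicates 1 and 3) for DLD-1 against HCT-116. Library size alone lost PMS1 for DLD-1 (adjusted p = 0.0112) and PMS2 for labelled resistant HT-29 (adjusted p = 0.0343). No filter lost PMS2 for DLD-1 (adjusted p = 0.0196) and MSH3 for DLD-1 against HT-29 (adjusted p = 0.0312). Summed with its copies, PMS2 lost the call for labelled resistant HT-29 (0.17, adjusted p = 0.0208).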

How the results depend on the processing

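Of 73 called results of the 6 genes, 40 kept their sign and their call in every alternative other than the 2-fold threshold, and 33 lost the call at least once. The cause of these changes was not tested. Counts were lowest for MSH3 in HCT-116 and MLH3 in labelled resistant HT-29, at 183 and 112 estimated counts in the lowest library.

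Counts below are of called results of the 6 genes over the 3 lines or the 3 pairs of lines, labelled resistant HT-29 included. Shares of all genes under each alternative are not set beside them here. The counts therefore do not compare the 6 genes with other genes. With the 2-fold threshold, 11 calls for 5-FU in sensitive cells became 1, 1 call for irradiation in sensitive cells became 0, 4 for irradiation in resistant cells became 0, 11 for resistant against sensitive cells became 3, 10 for the difference of responses between resistant and sensitive cells became 0, 17 between sensitive lines became 5, 12 for the difference of responses between lines became 2, and 7 for labelled resistant HT-29 against HCT-116 became 2. MLH3 and MSH3 of labelled resistant HT-29 made up 2 of the 3 calls left for resistant against sensitive cells. With limma on log2(TPM + 0.5) the counts became 6 for 5-FU in sensitive cells, 2 for irradiation in resistant cells and 4 for the difference of responses between resistant and sensitive cells. For 5-FU in resistant cells the count of 0 became 1 with DESeq2 and 1 with no filter. Without the labelled resistant HT-29 libraries, an alternative chosen after seeing the data, the counts were 2 for irradiation in resistant cells, 6 for resistant against sensitive cells and 5 for the difference of responses.

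With 1 replicate left out of every group, the counts ran from 8 to 10 for 5-FU and from 0 to 1 for irradiation in sensitive cells, from 1 to 3 for irradiation in resistant cells, from 7 to 10 for resistant against sensitive cells, from 6 to 7 for the difference of their responses, from 16 to 16 between sensitive lines, from 10 to 12 for the difference of responses between lines and from 5 to 7 for labelled resistant HT-29 against HCT-116. The lowest counts for irradiation, for resistant against sensitive cells and for the difference of their responses came without replicate 2. Values without a call that changed sign here ran from -0.087 to 0.0027 for MSH6 and from -0.0047 to 0.06 for EXO1 (5-FU, sensitive DLD-1), from -0.0078 to 0.092 for MSH6 and from -0.024 to 0.019 for PMS2 (resistant against sensitive DLD-1), from -0.045 to 0.086 for MSH3 and from -0.093 to 0.093 for EXO1 (difference of responses, DLD-1), from -0.014 to 0.099 for MLH3 (5-FU, sensitive HT-29), from -0.17 to 0.16 for MLH3 (difference of responses, HT-29), from -0.027 to 0.03 for PMS2 (DLD-1 against HCT-116) and from -0.041 to 0.011 for PMS2 (labelled resistant HT-29 against resistant HCT-116).

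The sign changed in 4 called results. On the TPM scale MSH6 turned to 0.0034 and PMS2 to 0.019 for 5-FU in sensitive HT-29, and MSH6 to 0.077 for labelled resistant against sensitive HT-29 and to -0.054 for the difference of their responses. Among values without a call, the TPM scale turned the difference of responses to -0.079 for MSH3 and -0.11 for EXO1 in DLD-1, 0.15 for MSH3 in HCT-116, -0.021 for MSH6 in DLD-1 minus HT-29 and 0.031 for PMS2 in DLD-1 minus HCT-116, and turned PMS2 to -0.09 in DLD-1 against HCT-116 and MSH6 to 0.031 in labelled resistant HT-29 against resistant HCT-116. Library size alone turned MSH3 to 0.066 and MSH6 to 0.069 for 5-FU in sensitive DLD-1, the DLD-1 difference of responses to -0.099 for MSH3 and -0.095 for EXO1, and PMS2 to -0.036 in DLD-1 against HCT-116 and 0.012 in labelled resistant HT-29 against resistant HCT-116. DESeq2 gave -0.0052 for MSH3 and -0.00071 for EXO1 in the DLD-1 difference of responses and -0.043 for PMS2 in DLD-1 against HCT-116. No filter gave -0.001 for MSH3 in the DLD-1 difference of responses, and only the compared groups gave -0.03 for PMS2 in DLD-1 against HCT-116. Summed with its copies, PMS2 was -0.084 in DLD-1 against HCT-116, 0.0076 in the difference of their responses and 0.033 in labelled resistant HT-29 against resistant HCT-116.

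Replicate numbers did not pair the samples: deviations of libraries with the same number correlated between -0.0656 and 0.0831, with 0 of 45 pairs above 0.1 in each line. With the replicate block the calls numbered 10 for 5-FU in sensitive cells, 12 for resistant against sensitive cells and 9 for the difference of their responses, and 3 results crossed the threshold: PMS1 for 5-FU in sensitive DLD-1 (-0.16, adjusted p = 0.0112) and MSH3 in the HT-29 difference of responses (0.31, adjusted p = 0.0103) lost the call, and PMS2 in resistant against sensitive HCT-116 (0.13, adjusted p = 0.00992) gained it. It changed no other call.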

Other observations

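The head-to-head neighbours of 2 of the genes were looked up after the values were seen. ORMDL1, a regulator of sphingolipid synthesis whose start sites lie 111 to 457 bases from those of PMS1 in RefSeq, gave no call after 5-FU in any sensitive line (0.12 in DLD-1, 0.11 in HCT-116, -0.13 in HT-29), while PMS1 fell by 0.40 in HT-29. AIMP2, a scaffold of the aminoacyl-tRNA synthetase complex 166 to 516 bases from PMS2, fell by 0.64 in HT-29 (SE 0.058, adjusted p = 4.6e-10), where PMS2 fell by 0.21, and gave no call in HCT-116 (0.014, adjusted p = 0.86), where PMS2 rose by 0.26. 

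MSH4, a meiotic relative of the recognition subunits, was higher in DLD-1 than in HT-29 under uracil (5.67 on the log2 scale, SE 0.248, adjusted p = 5.24e-26) and higher in resistant than in sensitive HCT-116 (1.74, SE 0.136, adjusted p = 4.03e-10). Resistant HCT-116 had lower POLD4, a small subunit of DNA polymerase delta (-1.10, SE 0.0992, adjusted p = 4.19e-09).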
